A study of Mus musculus with 2 samples.

Results

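The renin-angiotensin and apelin genes were examined in the transcriptome of the mouse heart at embryonic day 12.5. They are 8 genes, Agt, Ren1, Ace, Agtr1a, Agtr1b, Agtr2, Apln and Aplnr, chosen by symbol, and all 8 were found once each among the 34236 symbols of the deposited tables. Heart RNA from untreated embryos of mixed C57BL/6 x 129S6 background was sequenced in 2 libraries, replicate 1 and replicate 2, which form 1 group. There is no other genotype, stage or treatment, so the data give levels and their reproducibility and no contrast between conditions. Whether they are separate embryos, litters or pools is not given in the labels, so the spread between them may be technical. The unit is FPKM, fragments scaled to the length of the transcript and to the mapped fragments of the library, which allows levels of different genes to be compared. The labelled tissue carried its defining markers, with Tnnt2 (cardiac troponin T) at 1261 FPKM and all 5 cardiomyocyte markers above 1 FPKM in both libraries. Markers of other cells were also at 1 FPKM or more in both: 7 of 7 for endothelium and endocardium, 5 of 6 for mural cells, 5 of 5 for epicardium and fibroblasts, 3 of 3 for macrophages and 3 of 3 for red cells. In such a mixture, a low value can stand for few cells of a type or for little RNA per cell, which cannot be told apart here.

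Both systems make peptide hormones from larger precursors and pass their signal through G protein-coupled receptors. Renin (Ren1) cuts angiotensinogen (Agt), mainly a product of the liver, to angiotensin I, and angiotensin-converting enzyme (Ace), known from endothelium, trims that to angiotensin II. Angiotensin II binds type 1 receptors, which rodents encode in a pair of genes, Agtr1a and Agtr1b, and the type 2 receptor Agtr2. Apelin (Apln) and the peptide of Apela, also called Elabela or Toddler, share the receptor Aplnr. Aplnr is known for its part in early heart formation and in endothelial cells of growing vessels.

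The pair of type 1 receptor genes is the case in which reads could be exchanged between members, and their coding sequences are shown for that reason. In GENCODE M21 (GRCm38), the longest coding transcript of each gene carries its whole coding sequence on 1 exon, with 1077 bases without the stop codon. Between them 99 bases differed, an identity of 90.8%. The longest stretch without a difference was 66 bases, positions 75 to 140 of the coding sequence counted from the start codon, at chr13:30381028-30381093 on the plus strand for Agtr1a and chr3:20316301-20316366 on the minus strand for Agtr1b. It is printed 5′ to 3′ in lower case because no base differs.
Agtr1a and Agtr1b: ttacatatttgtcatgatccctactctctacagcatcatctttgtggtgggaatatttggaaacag
The 60-base window with the most differences, positions 964 to 1023, held 13 of them, shown in capitals. It lies at chr13:30381917-30381976 for Agtr1a and chr3:20315418-20315477 for Agtr1b.
Agtr1a: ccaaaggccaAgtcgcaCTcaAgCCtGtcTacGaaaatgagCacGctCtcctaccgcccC
Agtr1b: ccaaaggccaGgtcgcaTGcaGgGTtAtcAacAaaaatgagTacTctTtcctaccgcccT
A short fragment within the identical stretch could be given to either gene, and one within the divergent window could not. No match of 98% identity over 75 bases or more joined these genes.

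Of the 8 genes, 3 reached 1 FPKM in both libraries: the apelin receptor Aplnr, the type 1 angiotensin receptor Agtr1a and the apelin precursor Apln. The other 5, Ace, Agt, Agtr2, Agtr1b and Ren1, stayed under that limit in both. Of all symbols in the deposited data, 36.2% reached the limit in both libraries, and 52.4% of the 22240 protein-coding symbols did. The median of the 8 mean levels was 0.305 FPKM, against 1.68 FPKM over protein-coding genes. At a limit of 0.5 FPKM the count was again 3, where 56.3% of protein-coding genes passed. At 0.1 FPKM it was 5, with Ace and Agt added, where 64.8% passed.

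**Figure D1:**
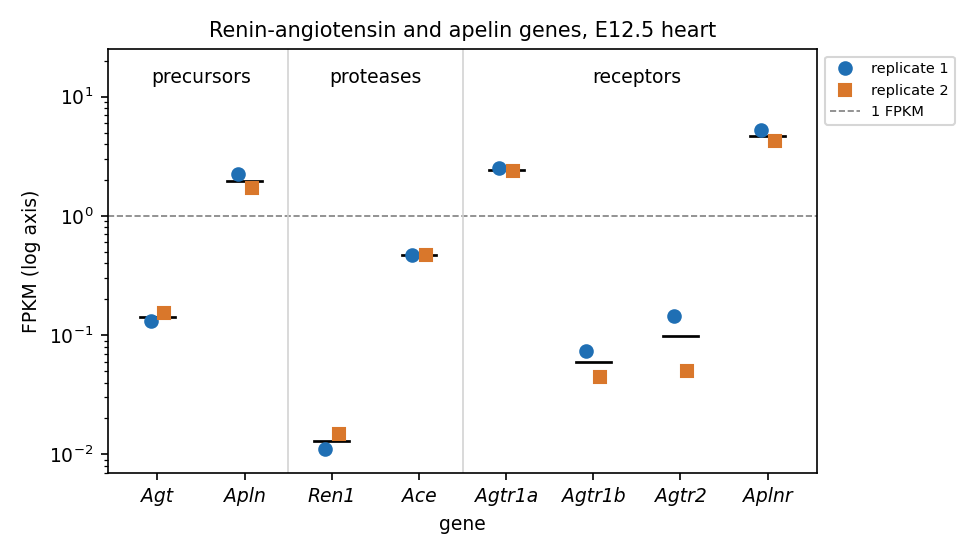
FPKM (vertical log axis) of the 8 genes in replicate 1 (circles) and replicate 2 (squares), with the mean as a bar and the genes ordered as precursors, proteases and receptors. Aplnr, Agtr1a and Apln lie above the dashed line at 1 FPKM, and Ren1 lies lowest at a mean of 0.0129 FPKM.

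The precursor genes lay far apart. Agt (ENSMUSG00000031980, chromosome 8, 127080434 to 127093606, minus strand, mm9) was at 0.131 FPKM in replicate 1 and 0.153 FPKM in replicate 2. Its mean of 0.142 ± 0.0151 FPKM (SD, n = 2) exceeded that of 35.8% of protein-coding genes. Hepatocyte markers were low in the same libraries: 0 of 8 reached 1 FPKM in both, and the highest, Afp (alpha-fetoprotein), had a mean of 1.17 FPKM. Their summed level was 2.24 FPKM in replicate 1 and 3.60 FPKM in replicate 2, with 6 of the 8 higher in replicate 2 and Apoa1 and F2 lower, and none of the 8 was listed at 0 in both. The part of liver RNA in the Agt value was not tested.

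Apln (ENSMUSG00000037010, chromosome X, 45378323 to 45388030, minus strand, mm9) was at 2.24 FPKM in replicate 1 and 1.72 FPKM in replicate 2. Its mean was 1.98 ± 0.372 FPKM (n = 2), above 51.3% of protein-coding genes. The libraries of Apln and those of Agt did not overlap, and the mean of Apln was 13.9 times that of Agt, 17.1 times in replicate 1 and 11.2 times in replicate 2. In GENCODE M21 the Apln transcript has 3149 bases on 3 exons, of which 231 bases, without the stop codon, are coding.

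The proteases that make angiotensin II were both under 1 FPKM. Ren1 (ENSMUSG00000070645, chromosome 1, 135247087 to 135256902, plus strand, mm9) was at 0.0111 FPKM in replicate 1 and 0.0148 FPKM in replicate 2. It had the lowest mean of the 8 genes, 0.0129 ± 0.00256 FPKM (n = 2), above 24.7% of protein-coding genes. Mice of the 129S6 type carry a further renin gene, Ren2, that C57BL/6 lacks. Reads from it could count towards Ren1 in this mixed background, and Ren2 was not analysed here. Markers of the nephron and adrenal, near which renin is known to be made, had 0 of 7 genes at 1 FPKM. Their summed level was 0.708 FPKM in replicate 1 and 0.819 FPKM in replicate 2. The highest means were 0.383 FPKM for Nphs1 and 0.278 FPKM for Six2, and Umod (uromodulin) was listed at 0 in both libraries.

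Ace (ENSMUSG00000020681, chromosome 11, 105829259 to 105851278, plus strand, mm9) was at 0.470 FPKM in replicate 1 and 0.466 FPKM in replicate 2. These were the closest values of the 8 genes relative to their level, with a mean of 0.468 ± 0.00273 FPKM (n = 2), above 42.6% of protein-coding genes. Ace was the only one of the 8 whose bases overlap another row of the tables. That row, the antisense gene Gm11651, was at or next to 0 in both libraries. The library kit named in the labels does not mark strand, so reads of the pair could not be told apart where they overlap. The gene-level values also do not separate the full-length form of Ace from the shorter testis form, which starts inside the gene.

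Of the 4 receptor genes, the apelin receptor was highest. Aplnr (ENSMUSG00000044338, chromosome 2, 84976517 to 84980079, plus strand, mm9) was at 5.23 FPKM in replicate 1 and 4.21 FPKM in replicate 2. With a mean of 4.72 ± 0.721 FPKM (n = 2), it exceeded 60.2% of protein-coding genes. The longest Aplnr transcript in GENCODE M21 is 1 exon of 3699 bases. All 7 endothelial and endocardial markers, such as Cdh5 (VE-cadherin) at 37.3 FPKM and Kdr (VEGF receptor 2) at 12.1 FPKM, were above 1 FPKM and above Aplnr in both libraries.

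Agtr1a (ENSMUSG00000049115, chromosome 13, 30428310 to 30474736, plus strand, mm9) was at 2.51 FPKM in replicate 1 and 2.37 FPKM in replicate 2. Its mean was 2.44 ± 0.0960 FPKM (n = 2), above 53.0% of protein-coding genes. Its paralogue Agtr1b (ENSMUSG00000054988, chromosome 3, 20213395 to 20266099, minus strand, mm9) was at 0.0742 FPKM in replicate 1 and 0.0448 FPKM in replicate 2. The mean of Agtr1b was 0.0595 ± 0.0208 FPKM (n = 2), so that the mean of Agtr1a was 41.0 times as high, 33.8 times in replicate 1 and 52.9 times in replicate 2. The type 1 receptor RNA was thus listed almost wholly under Agtr1a in both libraries. Given the identical stretch shown above, a few fragments of Agtr1a counted for Agtr1b, or the reverse, would weigh more on the low value, and how the authors placed such fragments is not given in the sources used here.

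Agtr2 (ENSMUSG00000068122, chromosome X, 21061670 to 21066290, plus strand, mm9), the type 2 receptor, was at 0.146 FPKM in replicate 1 and 0.050 FPKM in replicate 2. Relative to its level it differed most between the libraries of the 8 genes, with a mean of 0.0979 ± 0.0677 FPKM (n = 2), above 33.8% of protein-coding genes. Both its values lay below both values of Agtr1a. On the scale of log2(FPKM + 1), which compresses low values, Agtr2 was below Agtr1a by a log2 ratio of -1.65 ± 0.05 (SD, n = 2). The ratio of FPKM itself was 0.0582 in replicate 1 and 0.0211 in replicate 2, and its size is uncertain because the Agtr2 value is.

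Ordered by mean level, the genes ran Aplnr, Agtr1a, Apln, Ace, Agt, Agtr2, Agtr1b and Ren1. Neighbours in this order did not overlap between libraries, with exceptions at Agt and Agtr2 and at Agtr2 and Agtr1b. Agt exceeded Agtr2 in replicate 2 by 3.05 times, but in replicate 1 it was 0.902 times Agtr2. Agtr1a and Apln were close, with a ratio of 1.12 in replicate 1 and 1.38 in replicate 2. Every one of the 6 gene pairs compared here, which do not include Agt and Agtr2, had a mean log2 ratio larger than its SD between the libraries. That is a low bar, since the SD comes from 2 libraries whose spread may be technical. The log2(FPKM + 1) scale also shrinks it for low genes. With 2 libraries, an exact two-sided sign-flip test cannot give a p below 0.5, so no p-value is attached.

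**Figure D2:**
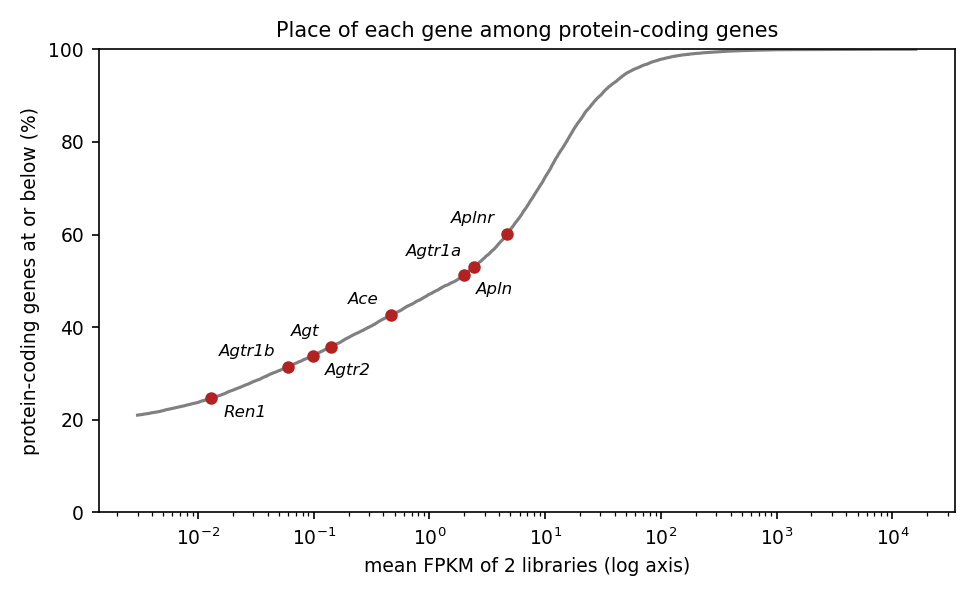
Share of protein-coding genes at or below a given mean FPKM (vertical axis, %) against mean FPKM of 2 libraries (horizontal log axis), with the 8 genes as points. Aplnr, at 60.2%, stands highest and Ren1, at 24.7%, lowest.

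The ratio of Aplnr to Apln was similar in the 2 libraries, while both genes differed between them. Aplnr exceeded Apln by a log2(FPKM + 1) ratio of 0.94 in each library, which is 2.33 times in FPKM in replicate 1 and 2.45 times in replicate 2. On that scale other pairs also had a small SD, 0.012 for Agtr1a over Agtr1b and 0.015 for Agt over Ren1. Those SDs are shrunk by the pseudocount, because Agtr1b, Agt and Ren1 are low. In FPKM, Agtr1a over Agtr1b was 33.8 times in replicate 1 and 52.9 times in replicate 2. Agt over Ren1 was 11.8 times in replicate 1 and 10.4 times in replicate 2. With 2 libraries, a steady ratio does not show that genes vary together. Aplnr and Apln were both lower in replicate 2, at 0.805 and 0.766 times the FPKM of replicate 1. On the log2(FPKM + 1) scale the difference of replicate 2 from replicate 1 was -0.26 for each. Of 2414 protein-coding genes within 1.5-fold of the mean of Aplnr, 4.14% differed by as much or more in either direction. For Apln it was 9.43% of 1368 genes. Lower values in replicate 2 were not particular to this pair: the summed level of replicate 2 was 0.929 times that of replicate 1 for endothelial and endocardial markers, 0.913 times for cardiomyocyte, 0.868 times for epicardial and fibroblast, 0.895 times for macrophage and 0.931 times for erythroid markers, and 1.03 times for mural cell markers. The part of the cell mixture in the Aplnr and Apln values was not tested.

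Agtr1a differed less, at 0.946 times the FPKM of replicate 1, and 62.9% of 1586 genes of like level differed by as much. Of the 3 genes above 1 FPKM, 0 were 2-fold apart between the libraries on the log2(FPKM + 1) scale. Among the 12637 genes whose mean reached 1 FPKM, 93, or 0.736%, were. In all, 6 of the 8 genes were lower in replicate 2, and Agt and Ren1 were higher. Of 17739 protein-coding genes above 0 FPKM in at least 1 library, 63.6% were lower in replicate 2. With replicate 2 rescaled to replicate 1 the share was 50.7% and the count 5 of 8, since Ace then had a log2 difference of 0.0093.

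Depth bears on the low genes. The absolute depth is unknown, but among genes above 0 and under 0.1 FPKM in both libraries many values stand for few fragments. The most frequent ratio of replicate 2 to replicate 1 there was 1.33, held within 0.05 log2 units by 485 of 2828 genes. If that ratio stands for equal numbers of fragments, 1 fragment was worth 1.33 times as much FPKM in replicate 2, which would be the shallower library. Without counts this reading could not be checked. The 2 values of Ren1 had a ratio of 1.32, which on this reading is close to equal numbers of fragments: 0.996 fragments in replicate 2 for each in replicate 1. Ren1 was itself among the 2828 genes that gave the ratio, so its closeness lends the reading no support. For Agtr2 the same conversion gave 3.88 fragments in replicate 1 for each in replicate 2, and for Agtr1b 2.20. Of 908 genes of like level, 13.1% differed on the log2(FPKM + 1) scale by as much as Agtr2. The corresponding share was 44.9% of 857 genes for Agtr1b, 87.7% of 649 for Ren1, 73.4% of 985 for Agt and 96.8% of 1055 for Ace. No counting interval can be given from FPKM, and values this low show neither the absence of a transcript nor a difference between Agtr2 and Agtr1b.

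**Figure D3:**
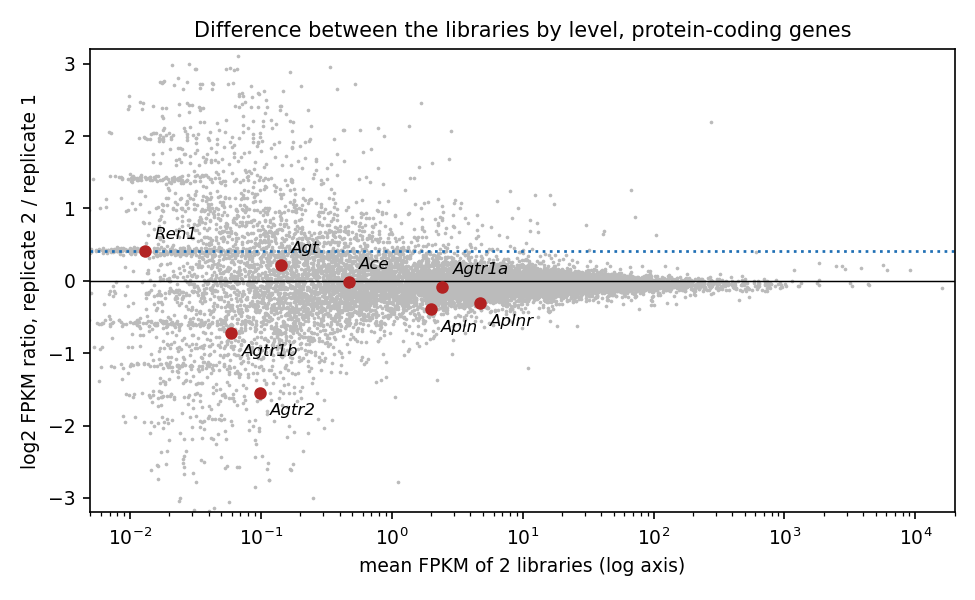
Log2 ratio of FPKM in replicate 2 to replicate 1 (vertical axis) against mean FPKM (horizontal log axis) for protein-coding genes above 0 in both libraries (grey), with the 8 genes in red. The dotted line marks a ratio of 1.33, taken to stand for equal numbers of fragments. Ren1, itself among the low genes from which that ratio was taken, lies on it. Agtr2 lies lowest of the 8, and 93 genes fall outside the vertical range.

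The wider pathway was read from 4 lists, which held 39 measured genes, 26 of them at 1 FPKM or more in both libraries (66.7%, against 52.4% of protein-coding genes). Peptidases known to trim or break down angiotensin or apelin peptides were mostly detected, 12 of 14 with a median of 9.69 FPKM. Ctsd, the lysosomal protease cathepsin D, led them at 169 ± 6.08 FPKM (n = 2). Furin, a convertase that can process the apelin precursor, was at 41.8 ± 0.328 FPKM. Among enzymes of the plasma membrane that remove residues from angiotensin peptides, Enpep (aminopeptidase A) was at 7.64 ± 0.274 FPKM and Anpep (aminopeptidase N) at 4.40 ± 1.06 FPKM. Mme (neprilysin), which cuts many small peptides, was at 5.41 ± 0.0492 FPKM.

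The peptidases under 1 FPKM were Ctsg and Cma1. Cma1 and Ctsg encode a mast cell chymase and cathepsin G, enzyme types of which some can form angiotensin II without Ace. Whether the mouse Cma1 product does so was not examined. The means of Cma1 and Ctsg were 0.00642 and 0.105 FPKM, and Cma1 was listed at 0 in replicate 2.

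Other receptors of these peptides were low. Mas1, a receptor of angiotensin 1-7, was at 0.0436 FPKM in replicate 1 and 0.0291 FPKM in replicate 2, and Mrgprd, the receptor of a related peptide, was listed at 0 in both. The bradykinin receptors, whose ligand Ace breaks down, were at 0.477 ± 0.0277 FPKM for Bdkrb2 and 0.0218 ± 0.00635 FPKM for Bdkrb1. In this list 2 of 7 measured genes were detected. These were Atp6ap2, the (pro)renin receptor and a partner of the vacuolar proton pump, at 24.5 ± 1.2 FPKM, and Agtrap, which promotes uptake of type 1 receptors into the cell, at 6.17 ± 0.383 FPKM.

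All 12 genes of the machinery that carries the receptor signals were detected, with a median of 15.4 FPKM. Gnai2, an inhibitory G protein subunit to which Aplnr is known to couple, was at 138 ± 0.552 FPKM. Gnaq and Gna11, the subunits used by type 1 angiotensin receptors, were at 13.7 ± 1.13 and 25.5 ± 1.15 FPKM. The arrestins Arrb1 and Arrb2 were at 9.69 ± 0.200 and 10.8 ± 0.470 FPKM. The lowest member was Plcb1, a phospholipase C, at 1.45 ± 0.384 FPKM. These proteins serve many receptors.

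In the list for aldosterone, the steroid whose release angiotensin II stimulates, 0 of 6 genes reached 1 FPKM in both libraries. The synthesis genes Cyp11b1, Cyp11b2 and Cyp21a1 were listed at 0 in both. Hsd11b2, which shields the mineralocorticoid receptor from glucocorticoids, was at 1.02 FPKM in replicate 1 and 0.995 FPKM in replicate 2, at the limit. The receptor gene Nr3c2 was at 0.454 ± 0.0464 FPKM.

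**Figure D4:**
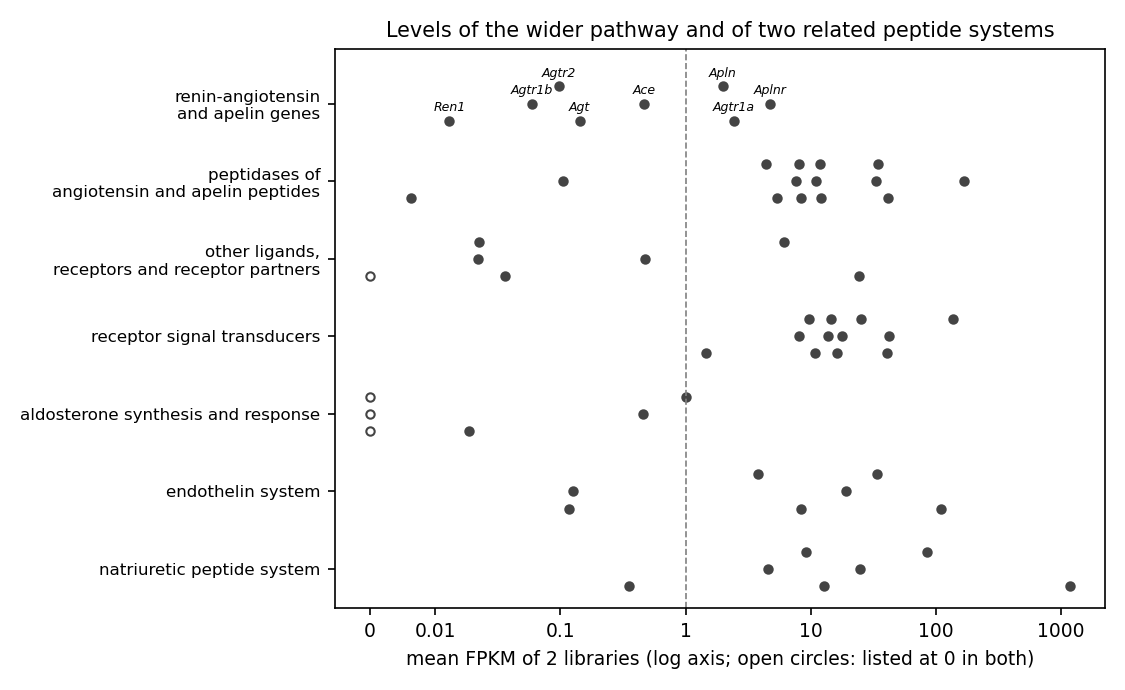
Mean FPKM of 2 libraries (horizontal log axis) for each gene of the 8-gene set, the 4 pathway lists and the endothelin and natriuretic peptide systems, 1 point per gene, with open circles for genes listed at 0 in both libraries. Signal transducers all lie above the dashed line at 1 FPKM, while 5 of the 8 renin-angiotensin and apelin genes lie below it.

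Apela, the other ligand of Aplnr, could not be given a level, because the names disagree at its locus. The identifier that GENCODE M21 gives to Apela, ENSMUSG00000079042, carries the symbol Trim61 in the deposited tables (chromosome 8, 67536875 to 67542587, minus strand, mm9). That row was at 0.168 FPKM in replicate 1 and 0.104 FPKM in replicate 2. RefSeq lists Gm10664 as a synonym of Apela, and the Gm10664 row (ENSMUSG00000074303, chromosome 8, 67538755 to 67561235, minus strand, mm9), typed as a processed transcript, was at 14.1 FPKM in replicate 1 and 16.2 FPKM in replicate 2. The rows overlap on the same strand, and their means differ 112-fold. Under the Gm10664 row the ligand would lie above Apln and Aplnr, and under the Trim61 row below both. Apela was therefore left out of all counts.

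Set beside 2 other vasoactive peptide systems, Aplnr lay below 4 of 5 receptor genes, and Agtr1a below all 5, in both libraries. In the endothelin system 5 of 7 genes were detected (median 8.36 FPKM) and in the natriuretic peptide system 6 of 7 (median 12.7 FPKM). Over all protein-coding genes 52.4% were detected, and 7 genes are few to set beside that share. The endothelin receptors Ednra and Ednrb were at 19.4 ± 0.714 and 33.9 ± 1.19 FPKM, both above Aplnr in each library. The natriuretic peptide receptors Npr3 and Npr2 were at 24.9 and 9.20 FPKM. Npr1, at 4.22 FPKM in replicate 1 and 4.87 FPKM in replicate 2, overlapped Aplnr. Ligand genes lay on both sides of Apln. Nppa and Nppb (atrial and brain natriuretic peptide), at 1182 ± 87.4 and 86.0 ± 5.22 FPKM, and Edn1 (endothelin 1), at 3.8 ± 0.127 FPKM, were above it in both libraries. Nppc, at 0.352 ± 0.00891 FPKM, lay between Apln and Agt, and Edn2, at 0.118 ± 0.00529 FPKM, below Agt in both libraries. Edn3, at 0.126 ± 0.0377 FPKM, overlapped Agt, and each was at 0.153 FPKM in replicate 2. These are differences of level within the same libraries, and no test of a difference between the systems was made.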

How the data were processed

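RNA sequencing of 2 libraries of mouse heart at embryonic day 12.5 was used as deposited. Per the labels' protocols, RNA was extracted with Trizol and libraries were made with the TruSeq RNA v2 kit. Per the submitters' processing notes, the authors used GSNAP, Cufflinks and Cuffnorm and named the builds mm9 and hg19. Versions, the annotation, the use of strand and the placing of multi-mapping reads were not stated in these sources. The authors deposited FPKM values per gene. Gene positions are those of the files and fit mm9, while transcripts came from GENCODE M21 on GRCm38.

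Rows with 1 symbol were summed. Log2 values used a pseudocount of 1 FPKM, and detection meant 1 FPKM or more in both libraries. FPKM summed to 388230 (replicate 1) and 382561 (replicate 2), and absolute depth is unknown. Of 106 listed symbols, 103 matched as written and 2 by gene ID. The genes and lists were chosen with earlier results of these data known. All 8 genes and the genes of the 6 pairs are named, and other list genes as examples. A planned pair and list member is not reported here. Other pseudocounts, limits, filters, scalings and row rules, and each library alone, were tried. The software was BLAST 2.17.0, Matplotlib 3.10.9, pandas 2.3.3, NumPy 2.4.6 and Python 3.11.15. The calculation of the depth ratio and the 2-fold rule were tested on simulated data. These had Poisson counting noise alone, the same length for every gene and assumed depths. They do not test the depth ratio found in the real libraries.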

Additional observations from a re-analysis of the deposited data

How the results depend on the processing

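Counts of detected genes were within 1.5 times of the reported ones under all alternatives run, except that a limit of 0.1 FPKM gave 5 of the 8 genes in place of 3. None of the 6 pairs compared changed direction under these alternatives. Agt and Agtr2, which were not among the pairs, changed order between the libraries. With a pseudocount of 0.1 FPKM, which compresses low genes less, the log2 ratios became 1.22 for Aplnr over Apln, -3.72 for Agtr2 over Agtr1a, 4.0 for Agtr1a over Agtr1b, 4.64 for Aplnr over Agtr2, 1.10 for Agt over Ren1 and 3.09 for Apln over Agt. Rescaling replicate 2 by 1.03 moved Aplnr over Apln to 0.944 and Agtr1a over Agtr1b to 1.71, past very small SDs. The difference of replicate 2 from replicate 1 with a pseudocount of 0.1 FPKM was 0.13 for Agt, -0.27 for Agtr1b, -0.71 for Agtr2 and 0.046 for Ren1. Genes 2-fold apart numbered 93, or 31 at a mean of 5 FPKM or more, where fewer genes are tested, and 175 with a pseudocount of 0.1 FPKM. Against protein-coding genes above 0 FPKM alone, a smaller background, the share below each gene was 50.1% for Aplnr, 41.1% for Agtr1a, 38.9% for Apln, 28.1% for Ace, 19.5% for Agt, 17.0% for Agtr2, 14.0% for Agtr1b and 5.56% for Ren1. With each library alone the share among all protein-coding genes ranged from 30.6% to 36.0% for Agtr2, 58.9% to 61.5% for Aplnr, 30.1% to 32.6% for Agtr1b, 50.2% to 52.3% for Apln, 24.6% to 25.8% for Ren1, 35.4% to 36.3% for Agt, 52.9% to 53.2% for Agtr1a and 42.67% to 42.71% for Ace. No paired analysis was possible because the libraries form 1 group. FPKM without counts limits what can be said below about 0.1 FPKM, where Ren1, Agtr1b and, by its mean, Agtr2 lie.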
